A study of Mus musculus with 2 samples.

Results

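The olfactory receptor genes of mouse chromosome 9 were examined for H3K4me3 peaks at their starts in lung group 2 innate lymphoid cells (ILC2s). They were taken as the protein-coding genes of the GENCODE annotation of GRCm38 on chromosome 9 whose symbol is Olfr followed by a number, which gave 132 genes of 22028 coding genes in all, 1135 of them olfactory receptor genes. H3K4me3, trimethylation of lysine 4 of histone H3, marks nucleosomes around transcript starts. CATCH-seq, the method used, is a ChIP-seq of unfixed chromatin for few cells, with digestion by micrococcal nuclease. The mice were wild-type C57BL/6J. Mothers of both groups were injected with alum in PBS before mating with untreated males. Asthmatic mothers received ovalbumin (OVA) with the alum and then repeated intranasal doses of 500 µg OVA, some days apart, between gestation days 4 and 17, and control mothers received PBS without OVA. There was 1 library per group, from about 3000 lung ILC2s of offspring 8 weeks old. The groups are called control-mother and asthmatic-mother offspring. RNA of these genes was not analysed here. Per the study's legend, each group came from 1 dam in 1 experiment. No value therefore has a replicate, the groups could not be tested against each other, and intervals below cover counting error only.

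Each olfactory receptor gene encodes a G protein-coupled receptor for odorants. An olfactory sensory neuron of the nose transcribes a single one of these genes, from 1 allele, and keeps the others in closed heterochromatin. The receptors signal through an olfactory G protein and adenylyl cyclase 3 to a cyclic nucleotide-gated channel. The genes lie in clusters, rich in repeats, and many have a short 5′ exon followed by an intron and a single coding exon.

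The 132 genes lay in a pair of clusters. Cluster 1 (chr9:18751507-20336094, 1.58 Mb) held 37 of them and cluster 2 (chr9:37708964-40190134, 2.48 Mb) held 95. Of the 132, 88 were on the plus strand and 44 on the minus strand, and 122 had their coding sequence in 1 exon. In 118 at least 1 transcript had more than 1 exon. The genes had 301 annotated transcripts with 277 distinct starts. Symbols of 3 of the genes, Olfr839-ps1, Olfr896-ps1 and Olfr911-ps1, mark them as pseudogenes, although the annotation lists them as coding. Repeats masked in the reference made up 55.9% of cluster 1 and 44.1% of cluster 2.

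Sequences of cluster peaks, a copied and a single-copy one, are given first, to show what the peaks between the genes consist of. They are on GRCm38 and in plus-strand orientation, with the 75 bases around the peak summit in capitals. Shown are the peak nearest to Olfr955 (chr9:39473536-39473714) and the peak between genes of cluster 1 that has no exact copy of its summit (chr9:19575356-19575592), both from the list of asthmatic-mother offspring.
Olfr955 nearest peak: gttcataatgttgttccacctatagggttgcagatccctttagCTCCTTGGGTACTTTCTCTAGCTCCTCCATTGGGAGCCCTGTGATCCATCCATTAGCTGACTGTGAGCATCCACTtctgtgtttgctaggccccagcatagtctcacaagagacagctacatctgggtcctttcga
Cluster 1 single-copy peak: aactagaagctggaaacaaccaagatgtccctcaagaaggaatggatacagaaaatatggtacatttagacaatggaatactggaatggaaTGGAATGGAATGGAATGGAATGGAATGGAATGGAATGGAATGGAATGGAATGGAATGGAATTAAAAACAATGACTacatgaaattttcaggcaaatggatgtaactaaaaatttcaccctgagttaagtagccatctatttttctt
The 75 bases of the Olfr955 peak had 5639 exact copies elsewhere on the 21 assembled chromosomes, with both orientations searched. The 75 bases of the cluster 1 peak had 0 copies, although they contain TGGAA 12 times in a row, part of a run of 14. An exact-copy count thus does not separate this peak from simple repeats.

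A peak was counted at a start when it overlapped the 1000 bp on either side of any annotated transcript start. In control-mother offspring, 0 of 132 olfactory receptor genes of chromosome 9 had a start peak (exact Clopper-Pearson 95% interval 0 to 2.76%). Taken as the one-sided limit of 3 counts, a count of 0 allows a share of up to 2.27%. In asthmatic-mother offspring 1 of 132 had one (0.758%, 0.0192 to 4.15%), Olfr971. Among all coding genes the shares were 50.9% in control-mother offspring and 41.9% in asthmatic-mother offspring. Among the 1078 other coding genes of the same chromosome they were 58.1% (55.1 to 61.0%) and 49.6% (46.6 to 52.7%). The intervals of the olfactory receptor genes and of their chromosome lay far apart in each list, whereas between the lists the olfactory receptor shares overlapped within counting error.

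**Figure D1:**
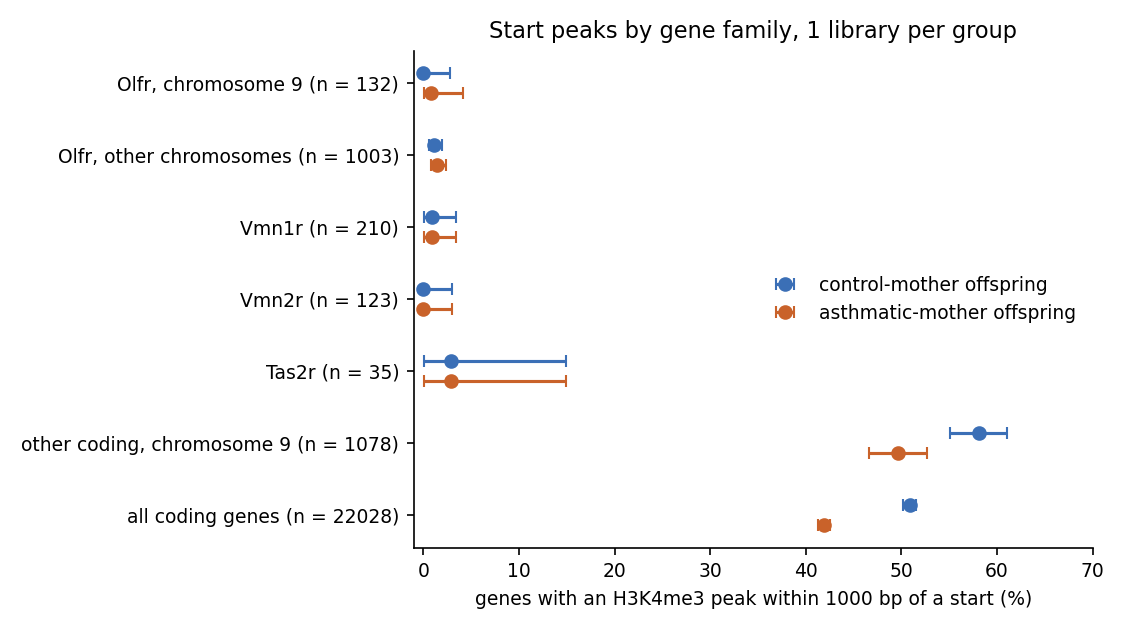
Share of genes with an H3K4me3 peak within 1000 bp of a start (x axis, %) by gene family (y axis), in the library of control-mother offspring (blue) and of asthmatic mothers (orange). Points are shares and bars exact 95% intervals. The olfactory receptor genes of chromosome 9 sit at 0 and 0.758%, while other coding genes of the chromosome sit at 58.1% and 49.6%.

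Olfr971 (ENSMUSG00000093934.2) lies on the plus strand at chr9:39836876-39841281, in cluster 2. Its peak in asthmatic-mother offspring was 240 bp wide and ended 453 bp upstream of the start at 39836876, outside every exon of the gene. The authors' fold over background was 7.40 and the −log10 q 10.6, which is the 80.5th percentile of that list. These values correspond to 18 fragments at the summit over a background of 1.57 fragments, the lowest background of the list. All 240 bases were repeat-masked, and the 75 bases around the summit had 3900 exact copies elsewhere. In control-mother offspring the nearest peak to Olfr971 lay past the 3′ end of the gene (chr9:39841661-39842163), 4785 bp from that start and 2225 bp from the other annotated start, at 39839436 within the gene. It had a fold of 4.95, a −log10 q of 5.39 and 13 fragments, and its summit had 29 copies. An overlapping downstream peak was also listed in asthmatic-mother offspring (chr9:39841605-39842055, 17 fragments, 59 copies). The upstream peak, the only one within 1000 bp, overlapped no peak of control-mother offspring.

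Distances to a gene are to the nearest of its annotated starts. Just outside 1000 bp, Olfr955 came next in asthmatic-mother offspring, at 1592 bp, with the peak printed above, followed by Olfr850 at 2271 bp and Olfr972 at 2783 bp. The Olfr955 peak had 18 fragments at the summit and the same fold, 7.40, as the Olfr971 peak. In control-mother offspring, Olfr971 at 2225 bp, Olfr850 at 2339 bp and Olfr972 at 3374 bp came closest. Olfr850 had a repeat-masked peak of copied sequence at about the same place in both lists (3250 and 1359 copies). At 2000 bp the counts were 0 and 2 of 132 genes, and at 5000 bp they were 6 (4.55%, 1.69 to 9.63%) and 11 (8.33%, 4.23 to 14.4%).

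**Figure D2:**
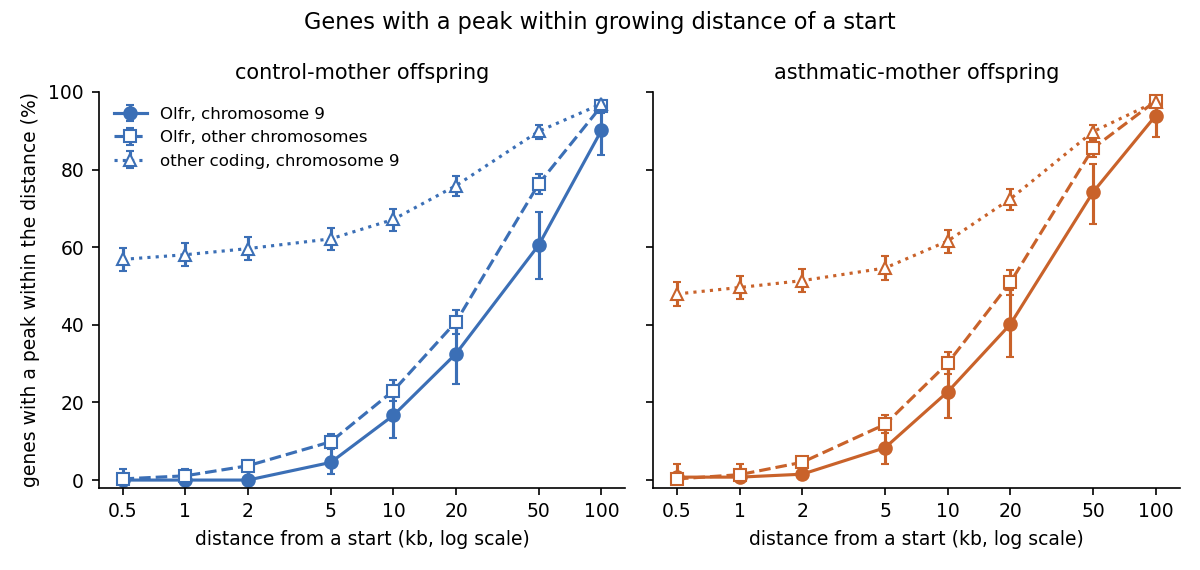
Share of genes with a peak within a given distance of a start (y axis, %; x axis, kb on a log scale) for the 132 olfactory receptor genes of chromosome 9 (filled circles), 1003 on other chromosomes (open squares) and 1078 other coding genes of chromosome 9 (open triangles), with exact 95% intervals, in each library. The other coding genes begin at 56.9% and 48.0% at 0.5 kb and reach 96.9% and 97.5% at 100 kb, and the olfactory receptor genes rise from 0 and 0.758% to 90.2% and 93.9%.

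The share of genes with a peak rose with distance in both groups of genes, from different levels. Between 500 bp and 5000 bp the share of other coding genes of chromosome 9 with a peak went from 56.9% to 62.2% in control-mother offspring and from 48.0% to 54.6% in asthmatic-mother offspring. It was 67.2% and 61.6% at 10000 bp and 89.9% and 89.8% at 50000 bp. The olfactory receptor genes reached 16.7% and 22.7% at 10000 bp and 60.6% and 74.2% at 50000 bp. The median distance to the nearest peak was 36276 bp in control-mother offspring (quartiles 14592 and 67600 bp) and 27304 bp in asthmatic-mother offspring (11896 and 53086 bp). The farthest was Olfr963, at 136360 and 136363 bp. The nearest peak was closer in asthmatic-mother offspring for 87 genes and in control-mother offspring for 45, edge differences between overlapping peaks included. Among the 71 genes whose nearest peaks did not overlap between the lists, these counts were 59 and 12. The list of asthmatic-mother offspring held more peaks in all, 51610 against 42126, and the part of this in the distances was not tested. The same counts were not made for other coding genes. Neighbouring genes can share a nearest peak, so the genes counted are not independent.

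**Figure D3:**
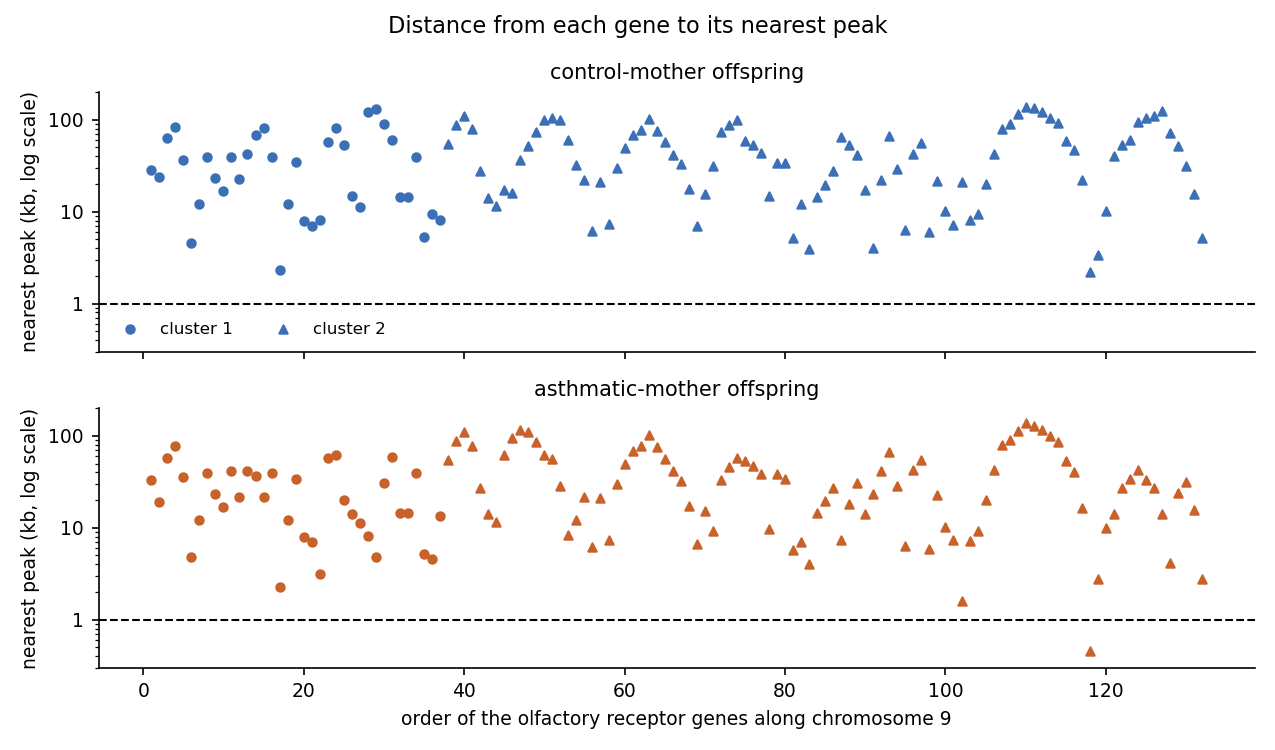
Distance from each of the 132 olfactory receptor genes to its nearest peak (y axis, kb, log scale), in the order of the genes along chromosome 9 (x axis), for each library. Circles are cluster 1, triangles cluster 2 and the dashed line 1 kb. Only Olfr971 in asthmatic-mother offspring lies under the line.

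The distances ran in waves along the clusters, since neighbouring genes share a nearest peak. In cluster 1 the medians were 28015 bp in control-mother offspring and 20119 bp in asthmatic-mother offspring, and in cluster 2 they were 41036 and 30245 bp. The nearest peaks of the lists overlapped each other for 61 of 132 genes (46.2%). This share was not computed for other coding genes, so it cannot be read as particular to the olfactory receptor genes. For 121 genes in control-mother offspring and 123 in asthmatic-mother offspring the nearest peak was wholly repeat-masked. Its summit had an exact copy elsewhere for 121 and 127 genes. Counted by peaks rather than genes, 92.2% and 93.2% of chromosome 9 peaks away from coding starts had a copied summit.

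Few peaks lay within the genes, and in both lists 0 of 132 genes had a peak over the coding sequence. In control-mother offspring Olfr18 alone had peaks in the gene body, 2 of them, in an intron. In asthmatic-mother offspring Olfr18, Olfr39 and Olfr986 had 1 each. At Olfr39 (chr9:20282351-20287578) the peak chr9:20287565-20287958 touched the 3′ end of the last exon. The overlapping peak of control-mother offspring, chr9:20287643-20288040, began just past that end, so the difference between the lists here was one of peak edges. At Olfr986 (chr9:40180920-40190134) the peak lay at the 3′ end of the gene (chr9:40189888-40190134), with a fold of 4.71, a −log10 q of 4.68, 12 fragments and 1685 copies of its summit.

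Receptor genes of the same family on other chromosomes and of other chemosensory families also had low shares. Of 1003 olfactory receptor genes on other chromosomes, 11 had a start peak in control-mother offspring (1.10%, 0.549 to 1.95%) and 14 in asthmatic-mother offspring (1.40%, 0.765 to 2.33%), 10 of them in both lists. The intervals of the chromosome 9 genes contained these shares. Of 210 Vmn1r genes, which encode pheromone receptors of the vomeronasal organ, 2 had a start peak in each list (Vmn1r4 in both, Vmn1r81 in control-mother and Vmn1r7 in asthmatic-mother offspring), and of 123 Vmn2r genes, the other vomeronasal family, 0 had one. Of 35 Tas2r genes, bitter taste receptors, 1 had a start peak in each list. This was Tas2r134, with a −log10 q of 14.7 and 48.9 and 5 copies of the summit.

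Some of these peaks lay at the start of another gene. At Vmn1r4 a peak with a −log10 q of 17.8 in control-mother offspring and 6.86 in asthmatic-mother offspring, with 0 copies, lay at the start of Nt5c3, a nucleotidase gene. At Olfr56 on chromosome 11, chosen here after its values were seen, the 4 peaks of control-mother offspring lay at starts of 9930111J21Rik1, 9930111J21Rik2 and Ifi47, an interferon-inducible GTPase gene. Starts annotated to Olfr56 lie within 1000 bp of the same peaks, which therefore cannot be assigned to 1 gene. The remaining olfactory receptor peaks on other chromosomes were on masked repeats, like that of Olfr971. All 10 others in control-mother offspring and all 15 in asthmatic-mother offspring were wholly repeat-masked, and of all 14 and 15 peaks 12 and 13 had copied summits.

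Between the genes, peaks were not rare. By their summits, 55 peaks of control-mother offspring lay in the clusters, 13.5 per Mb (exact Poisson 95% interval 10.2 to 17.6), and 78 of asthmatic-mother offspring, 19.2 per Mb (15.2 to 23.9). Over chromosome 9 away from coding starts the densities were 9.73 (9.18 to 10.3) and 13.5 (12.8 to 14.1) per Mb. In the start windows of the olfactory receptor genes, 0.425 Mb in all, they were 0 (0 to 8.67) and 2.35 (0.0595 to 13.1) per Mb. In those of other coding genes of chromosome 9 they were 132 and 108 per Mb. The interval of the start windows lay below that of the clusters in each list.

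The start windows held fewer repeats than the clusters. Masked bases made up 19.3% of the start windows and 48.7% of the clusters. Per Mb of masked bases, the clusters had 27.8 peaks (20.9 to 36.1) in control-mother offspring and 39.4 (31.1 to 49.1) in asthmatic-mother offspring. The start windows then had 0 (0 to 44.9) and 12.2 (0.308 to 67.8), and chromosome 9 away from coding starts had 30.7 (28.97 to 32.5) and 42.5 (40.4 to 44.6). The windows held 0.0821 Mb of masked bases, too few for any count, 0 included, to place their interval below that of the clusters. The part of the repeats in the lower density at starts therefore could not be tested on this scale.

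**Figure D4:**
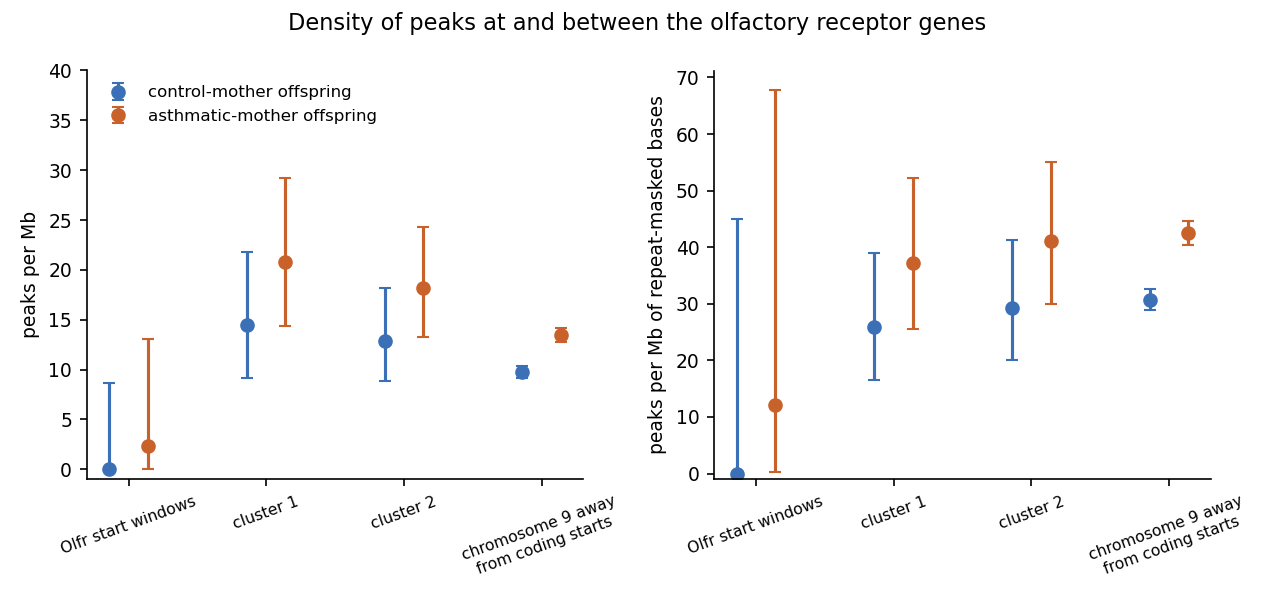
Peaks per Mb (left) and per Mb of repeat-masked bases (right), with exact Poisson 95% intervals, in the start windows of the 132 olfactory receptor genes, in the clusters and over chromosome 9 away from coding starts, for offspring of control (blue) and asthmatic (orange) mothers. The start windows lie below the clusters on the left, and on the right their intervals, up to 44.9 and 67.8, are too wide to be set apart from the clusters at any count.

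Cluster peaks were mostly on repeated sequence, as were peaks of chromosome 9 away from coding starts in general. Of 55 peaks in control-mother offspring 52 were wholly masked and 52 had copied summits (94.5%). Of 78 in asthmatic-mother offspring 76 were wholly masked and 77 had copied summits (98.7%). Over chromosome 9 away from coding starts, clusters included, 1029 of 1157 and 1469 of 1600 peaks were wholly masked. Copied summits made up 92.2% and 93.2% there. Of the 55 peaks 41 overlapped a peak of the other list (74.5%, 61.0 to 85.3%), as did 42 of the 78 (53.8%, 42.2 to 65.2%). Over all peaks of the lists these shares were 71.8% and 60.9%.

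The strongest cluster peak was the same in both libraries. It lay at chr9:37930057-37930453 in control-mother offspring, with a −log10 q of 52.4 and 56 fragments, and at chr9:37930026-37930447 in asthmatic-mother offspring, with a −log10 q of 51.9 and 52 fragments. Its summit was 11704 and 11670 bp from the start of Olfr878, with 131 and 133 copies. The next was the TGGAA repeat peak of cluster 1 printed above, in a stretch with no annotated gene, 7152 and 7133 bp from Olfr855. It had 44 fragments and a fold of 15.9 in control-mother offspring (chr9:19575309-19575636) and 32 fragments and a fold of 12.9 in asthmatic-mother offspring.

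Of 8 other coding genes inside and next to the clusters, 4 had a start peak in control-mother offspring and 2 in asthmatic-mother offspring, beside 50.9% and 41.9% of all coding genes. Zfp202, a zinc finger gene just right of cluster 2 and 5237 bp from a start of Olfr986, had a peak at its start in both lists. It ran over chr9:40192202-40192797 with a fold of 8.92 and 33 fragments in control-mother offspring and over chr9:40192342-40192802 with a fold of 7.96 and 20 fragments in asthmatic-mother offspring, with 0 copies of the summit. Zfp560, right of cluster 1, also had one in both lists, with folds of 5.31 and 5.85. Zfp317, within cluster 1, and Vwa5a, within cluster 2, had a peak in control-mother offspring alone, of 15 and 14 fragments. The mucin gene Muc16 and the pannexin gene Panx3, at the left flanks, and AW551984 and Tmem225, within cluster 2, had a start peak in neither list. Of 41 Olfr genes of chromosome 9 annotated as other than coding, 1 had a start peak in control-mother offspring, Olfr856-ps1. In asthmatic-mother offspring 2 had one, Olfr856-ps1 and Olfr956-ps1. The peaks over Olfr856-ps1 were wholly repeat-masked, with 4195 and 4288 copies of the summit. The share for other genes not annotated as coding was not computed.

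Base composition, which the choice of genes did not use, differed between the olfactory receptor starts and other coding genes of the chromosome, and its medians were close to those of other sensory receptor families. Within 1000 bp of a start they had a median of 0.425 CpG per 100 bases, taking the highest of each gene's starts, with a range of 0.0500 to 1.45. The median GC content of a gene's windows was 36.1% (30.98 to 44.03%). Over single start windows the median was 0.350 CpG per 100 bases, against 2.60 for other coding genes of chromosome 9, 0.400 for olfactory receptor genes on other chromosomes, 0.350 for Vmn1r and 0.400 for Vmn2r and Tas2r genes. The GC medians were 36.4%, 51.2%, 37.5%, 37.4%, 34.9% and 36.0% in that order, with Vmn2r before Tas2r. Among other coding genes of chromosome 9, 168 had at most 1.45 CpG per 100 bases, and of these 8 (4.76%, 2.08 to 9.17%) and 5 (2.98%, 0.973 to 6.81%) had a start peak. Of the 910 genes above that value, 67.9% (64.8 to 70.9%) and 58.2% (55.0 to 61.5%) had one. These CpG classes were drawn after the counts were known. Against coding genes of the same CpG range, the shares of the olfactory receptor genes, 0 and 0.758%, had overlapping intervals. Within this range CpG content was not matched. At or below 0.425 CpG per 100 bases lay 66 of the olfactory receptor genes but 17 of the 168 others.

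**Figure D5:**
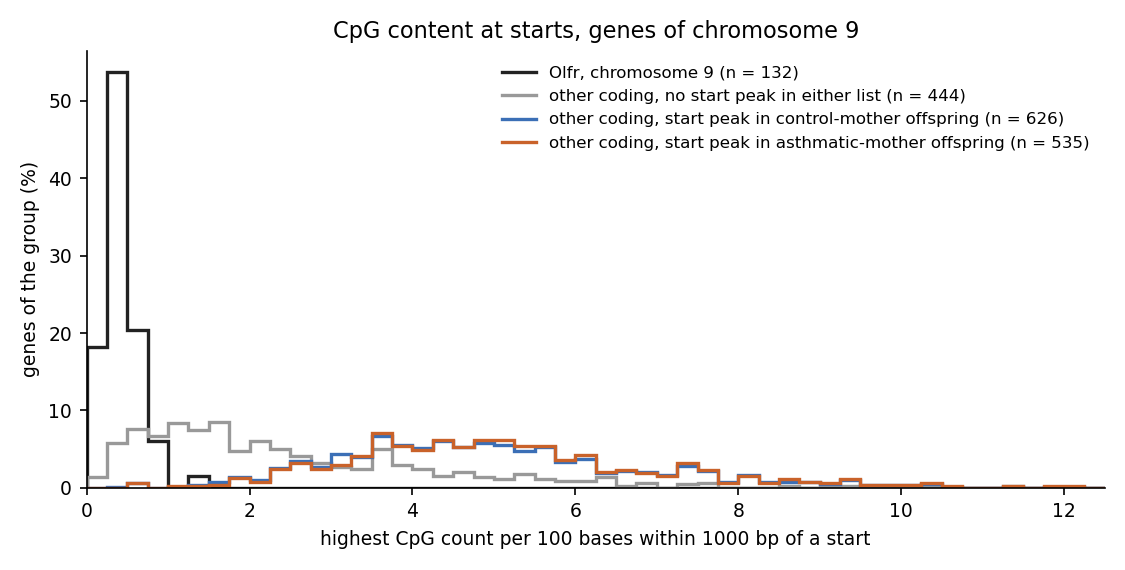
Share of genes (y axis, % of each group) by the highest CpG count per 100 bases within 1000 bp of a start (x axis), on chromosome 9, for the 132 olfactory receptor genes (black), 444 other coding genes with no start peak in either list (grey) and those with a start peak in offspring of control (blue, 626) or asthmatic mothers (orange, 535). The black line ends at 1.45, left of most genes with a start peak.

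Some starts poor in CpG carried a peak, though none at the lowest CpG contents. At or below the median of the olfactory receptor genes, 0.425 CpG per 100 bases, 0 of 17 other coding genes of chromosome 9 had a start peak in either list (0 to 19.5%). The genes with a start peak at up to 1.45 CpG per 100 bases, named because they are few, were in control-mother offspring 2010315B03Rik, AB124611, Acsbg1, Casp4, Ccr2, Ccr3, Pate4 and Vwa5a, and in asthmatic-mother offspring Acsbg1, Casp4, Ccr3, Jaml and Pate4. Casp4, an inflammatory caspase gene, had 0.700 CpG per 100 bases, 14 fragments at the summit in control-mother offspring and 10 in asthmatic-mother offspring, and 0 copies. Ccr2, a chemokine receptor gene, had 16 fragments and 0 copies in control-mother offspring. The peak at Ccr3, the eotaxin receptor gene, was wholly masked like that of Olfr971, with 7978 and 7744 copies. Among the 8 and 5 genes, 6 and 3 had a peak with a single-copy summit, against 0 olfactory receptor genes of chromosome 9.

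RefSeq promoters of GRCm38.p6 matched 109 of the 132 genes, with 110 promoters, each 250 bases before to 50 after a start. Olfr971, the only gene of the 132 with a start peak, was not among the 109. TATAAA, the TATA box core, occurred on either strand in 49 of them (44.5%), against 13.6% of all 32851 promoters in the table. TAATTA, a homeodomain core, occurred in 28 (25.5%), against 5.29% of all. CCAAT occurred in 36.4%, against 37.4%. GGGCGG, the GC box core, was in 0 of 110, against 35.7%, and the palindromic motif of EBF factors was in 0 of 110, against 0.904%. Olfactory receptor promoters on other chromosomes had TATAAA in 40.6% and TAATTA in 17.7%. Their median GC content was 35.3%, against 34% for those of chromosome 9. All motifs were searched on both strands, TATAAA and TAATTA hits can overlap, and a match is letters only.

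The 250 bases before the start of Olfr829 (chr9:18856377-18856626) and Olfr837 (chr9:19136678-19136927) are shown beside those of Zfp202 (chr9:40192066-40192315), all on the plus strand, to set unmarked starts of cluster 1 against the marked start beside cluster 2. The pair were the leftmost of 4 olfactory receptor promoters that held both TATAAA and TAATTA and overlapped no annotated exon. TATAAA and TAATTA are in capitals in these, and CG in Zfp202.
Olfr829 upstream: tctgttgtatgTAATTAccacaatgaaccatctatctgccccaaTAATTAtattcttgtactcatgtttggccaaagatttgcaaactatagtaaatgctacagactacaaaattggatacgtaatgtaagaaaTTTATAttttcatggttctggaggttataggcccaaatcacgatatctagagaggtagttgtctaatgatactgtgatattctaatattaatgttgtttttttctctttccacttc
Olfr837 upstream: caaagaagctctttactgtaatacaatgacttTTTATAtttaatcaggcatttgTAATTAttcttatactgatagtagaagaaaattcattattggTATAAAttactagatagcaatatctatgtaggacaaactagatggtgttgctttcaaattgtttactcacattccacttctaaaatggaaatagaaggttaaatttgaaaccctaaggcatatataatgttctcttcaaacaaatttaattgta
Zfp202 upstream: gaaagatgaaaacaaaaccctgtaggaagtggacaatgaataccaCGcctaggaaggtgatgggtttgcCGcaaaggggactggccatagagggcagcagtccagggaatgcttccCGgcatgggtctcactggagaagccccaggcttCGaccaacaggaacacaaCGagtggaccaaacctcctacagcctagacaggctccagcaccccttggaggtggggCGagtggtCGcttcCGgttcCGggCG
The Olfr829 stretch had 2 CpG and a GC content of 32%, that of Olfr837 had 0 CpG and 26.8%, and that of Zfp202 had 10 CpG and 58%.

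Copies of the start regions themselves were few. The median share of 75-base stretches with an exact copy, sampled every 25 bases in the windows of a gene, was 0.534%. It was over 10% in 9 genes, at most 19.2% in Olfr834 and Olfr952, and 17.3% in Olfr971. These shares count exact copies only, and whether reads could be placed at the starts was not tested.

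Genes of olfactory signalling were marked in part. Of 25 genes in a list of signalling and receptor choice, 9 had a start peak in control-mother offspring and 7 in asthmatic-mother offspring, 36.0% and 28.0% beside 50.9% and 41.9% of all coding genes. Gnal, the olfactory G protein alpha subunit that the brain also uses, had 18 and 9 fragments, and Adcy3, the cyclase, had 14 in each. Gnb1, a general beta subunit, the LIM cofactor gene Ldb1 and the histone-modifying enzyme genes Kdm1a, Ehmt1 and Ehmt2 had a peak in both lists, with up to 38 fragments at Ehmt2. Reep1, a membrane protein gene of receptor export, and Ebf4 had one in control-mother offspring alone. Of the 4 channel genes, Cnga2 among them, 0 had a peak in either list, as had 0 of the 3 genes of exchange and modulation, Omp (olfactory marker protein) among them.

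The labelled cell type was checked by markers. Of 13 ILC2 genes 11 and 9 had a start peak (84.6% and 69.2%, beside 50.9% and 41.9% of all coding genes), among them Il1rl1, which encodes the ST2 receptor of the sort, with 33 and 19 fragments. Gata3 and Il7r had one in control-mother offspring alone, and Icos and Klrg1 in neither. The strongest start peak of Il2ra was wholly masked, with 2254 and 2262 copies, and the strongest start peak had a single-copy summit at 10 and 8 of the 13. Of 19 genes of T cells, B cells, macrophages, neutrophils, epithelium, endothelium and fibroblasts, 1 had one in control-mother offspring, Epcam, with 24 fragments, and 0 in asthmatic-mother offspring.

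How low a pile-up had to be to go unlisted bears on the olfactory receptor starts without a peak. At the lowest background of each list, 1.83 and 1.57 fragments, the smallest summit listed held 9 fragments in control-mother offspring and 8 in asthmatic-mother offspring. The Olfr971 peak, with 18, was at the median summit of its list, 18 fragments. A start with fewer fragments than these limits would appear without a peak, so weak H3K4me3 at the other starts was not detectable in these lists.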

How the data were processed

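The H3K4me3 libraries, 1 per group, were made from lung ILC2s by CATCH-seq. The authors trimmed paired reads, aligned them to GRCm38 (mm10) with Bowtie 2, removed duplicates and deposited 1 peak list per library. The peak caller, its threshold and any use of the input library are not given for these lists in the sources used here, and the study's reporting summary says that peaks were not called on the ChIP-seq data, although lists were deposited. The deposited lists give each peak a score (10 times the −log10 q, rounded down for nearly all peaks), a ratio of signal to background (the authors' fold) and, on a −log10 scale, a p-value and a q-value. None is scaled between libraries.

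Transcript starts came from GENCODE vM21. Peaks were counted at a start within 1000 bp by any overlap, in regions by their summit, and as shared with 1 bp of overlap. Genes at most 500 kb apart were joined to clusters. Fragments at summits and the background were solved from fold and −log10 p under a Poisson model with 1 added to both terms of the fold. This assumes calling without a control and solved 100% of peaks to within 0.001. Repeats are the masked bases of RefSeq GRCm38.p6, and exact copies of 75 bases were searched for on the 21 assembled chromosomes, in both orientations. Shares have exact Clopper-Pearson and densities exact Poisson 95% intervals. Read depth is unknown from these lists. Overlaps, copies and solved fragments were tested on simulated data.

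Genes named are those with a start peak, the 3 nearest misses in each list, coding neighbours of the clusters, olfactory signalling genes with a start peak, defining olfactory genes and receptors of other families where a list had 5 or fewer. Other genes, cell type markers among them, were named after their values were seen. Members and lists were chosen with earlier results of these data known. The scripts ran in Python 3.11.15 (scipy 1.17.1, numba 0.67.0, matplotlib 3.10.9, numpy 2.4.6, pandas 2.3.3). The sequence of 1 peak is not reported here. A planned search for a family motif in receptor proteins was not run. Other data of the study were not used here.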

Additional observations from a re-analysis of the deposited data

How the results depend on the processing

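Of 56 alternative values, 36 stayed within the 95% interval of the value reported, or for counts of genes within 1.5 times, and 20 did not. For the olfactory receptor genes of chromosome 9, those outside were 4.55% and 8.33% (control-mother and asthmatic-mother offspring) at 5000 bp, and 0% in asthmatic-mother offspring with the 10000 peaks of highest −log10 p or with single-copy summits alone. In both, the peak of Olfr971 was no longer counted. Starts of coding transcripts or of the gene record alone, a summit in the window, a −log10 q of at least 5 and distances of 500 and 2000 bp left 0, and 1 or 2 genes. Leaving out genes near another coding start removed 0. For olfactory receptor genes on other chromosomes the shares moved to 0.299% in each list at 500 bp, 3.69% and 4.59% at 2000 bp, 9.87% and 14.4% at 5000 bp, and 0.0997% and 0.199% with single-copy summits. For other coding genes of chromosome 9 they moved to 62.2% and 54.6% at 5000 bp, and to 43.7% in asthmatic-mother offspring with a −log10 q of at least 5. Cluster densities moved to 0.738 and 0.246 peaks per Mb with single-copy summits, to 10.1 in control-mother offspring with a −log10 q of at least 5, and to 27.8 and 39.4 per Mb of masked bases, an alternative chosen after seeing the data. Joining genes at 200 or 1000 kb gave the same 2 clusters. Counts of signalling genes stayed at 9 in control-mother offspring and between 6 and 8 in asthmatic-mother offspring.

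No paired analysis was possible because each group has 1 library, and leaving out a replicate was likewise not possible. Dam, library and group cannot be told apart. A start without a peak means a pile-up below the caller's limit, and the lists do not show the signal there. Reads from copied sequence can be placed at any copy, so a peak on such sequence does not fix the place of the mark. The share of such reads at each peak was not tested.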
